A study of Mus musculus with 121 samples.

Results

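The 10 genes described here encode secreted or membrane-anchored metalloproteinases and the tissue inhibitors that block them: the inhibitors Timp1, Timp2 and Timp3, the matrix metalloproteinases Mmp2, Mmp3, Mmp14 and Mmp19, and the ADAMTS proteases Adamts1, Adamts2 and Adamts5. They were taken by symbol from the 31053 genes listed in the count files, and all 10 were found and passed the filter on low counts (1 CPM or more, counts scaled to a library total of 1000000, in no fewer than 3 libraries). The data are gene counts from 62 libraries of 3′ digital gene expression, an RNA sequencing method that reads the 3′ end of each transcript. All libraries came from 1 immortalised fibroblast line, made from the ear of a mouse that carries a luciferase knock-in at Per2, and used at passage 25, so every group is the same cell line. Cells in microfluidic chambers went through 3 cycles of 12 h high then 12 h low glucose and insulin (HL, a feeding then fasting pattern), 12 h low then 12 h high (LH, the opposite order), or high medium renewed every 12 h (HH), then 12 h without medium changes, after which they were collected 6 times, 4 h apart. By the titles of the deposited samples, HL had 21 libraries, LH 22 and HH 19, and each treatment and collection had between 2 and 4.

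The extracellular matrix is built and cut down by the same fibroblasts. Matrix metalloproteinases are zinc enzymes made as inactive precursors; some are released, and others, such as MMP14, stay in the plasma membrane. TIMP proteins bind their active site, and TIMP2 also holds the MMP2 precursor beside MMP14 on the cell surface, where MMP14 starts its activation. ADAMTS proteases carry thrombospondin repeats; some cut proteoglycans such as aggrecan and versican, and ADAMTS2 trims the amino-terminal end of procollagens.

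A pair of labels places a library in the experiment, and the 2 differ for most of it. The title of each deposited sample was used throughout, and the library numbers in the read summary of the study were used as an alternative, which covers 57 libraries (19 for each treatment). By numbers each treatment and collection had between 1 and 4. The labels give the same treatment and collection for 22 of the 62 libraries, which include all of HH and of collection 1 of HL. The titles also hold a clock hour, which was not used. It is the same for collections 2 and 5, and for LH collections 3 and 4 it differs from that of HL and HH. Hours given here follow the collection number in steps of 4 h, and which hours are right was not tested. Values for HL and LH are by titles unless library numbers are named. The CPM values of HH are the same under either label, but tests that include HH are not, since all libraries share 1 fit.

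Library totals ranged from 104912 to 11619095 counts (median 5825881), and the library with the next lowest total held 2136819. In 10 libraries (3 HL, 5 LH and 2 HH) the rank correlation with the other libraries was low. They are said to stand apart, and values without them are given beside the results they change. The fibroblast identity was checked on 12 marker genes, all of which were measured, with summed levels of 9974 to 38699 CPM per library. Markers of other cell types were low in sum with 3 exceptions. The 4 epithelial markers summed to at most 4.57 CPM per library (Krt5 at 0 counts in every library, Cdh1 at a mean of 1.48 CPM), the 4 Schwann cell and pigment cell markers to at most 5.62 CPM (Tyr at 0 in every library, Pmel at 0.550 CPM) and the 2 fat markers to at most 10.8 CPM. Of the 4 endothelial markers, Kdr averaged 172 CPM, while Pecam1 and Cdh5 averaged 0.276 and 0.0672 CPM. Of the 4 muscle markers, Cnn1, an actin-binding protein of smooth muscle, averaged 42.3 CPM, while Myh11 and Des averaged 0.223 and 0.0801 CPM. The 5 leukocyte markers had a median sum of 3.98 CPM and reached 153 CPM in 1 library, the shallowest, where 3 counts make 28.6 CPM. A lower value in bulk RNA can come from fewer cells that make the transcript or from less of it per cell, and these cannot be told apart.

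The promoters of 3 genes are shown, that of Timp1, which was called for a change over the collections, and those of Timp3 and Mmp14, which were not called with all libraries by titles (edgeR adjusted p = 0.501 and 0.517 in HH) and were called in HH without those that stood apart. Each run is RefSeq sequence of build GRCm38.p6, 5′ to 3′ on the plus strand, which is the strand of all 3 genes, and ends before the gene start annotated in GENCODE, so that the Timp3 run holds 210 bases and the others 250. The capitals mark the motifs that were searched for and found in these runs, AGGAAG (the core bound by ETS factors) and GGGCGG or its complement CCGCCC (the GC box bound by SP1). The runs are chrX:20869916-20870165 for Timp1, chr10:86300162-86300371 for Timp3 and chr14:54431348-54431597 for Mmp14.
Timp1: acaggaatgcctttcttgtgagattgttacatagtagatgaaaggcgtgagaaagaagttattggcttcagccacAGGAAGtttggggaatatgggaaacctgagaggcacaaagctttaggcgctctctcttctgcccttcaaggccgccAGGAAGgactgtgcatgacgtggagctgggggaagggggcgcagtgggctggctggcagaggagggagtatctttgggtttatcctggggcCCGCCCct
Timp3: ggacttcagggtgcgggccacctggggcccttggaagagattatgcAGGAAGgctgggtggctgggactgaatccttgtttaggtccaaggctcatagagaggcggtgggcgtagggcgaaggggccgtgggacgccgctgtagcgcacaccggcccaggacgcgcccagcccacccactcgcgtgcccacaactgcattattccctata
Mmp14: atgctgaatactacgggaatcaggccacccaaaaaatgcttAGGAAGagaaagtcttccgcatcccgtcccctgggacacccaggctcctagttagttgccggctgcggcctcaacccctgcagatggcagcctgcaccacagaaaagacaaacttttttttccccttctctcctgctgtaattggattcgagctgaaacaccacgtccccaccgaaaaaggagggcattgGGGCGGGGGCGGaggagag
The Timp1 run holds AGGAAG at 2 places and a GC box 2 bases from its end, the Timp3 run holds AGGAAG once, and the Mmp14 run holds 2 adjacent GC boxes and AGGAAG once. In the 250 bases before the RefSeq start, which were at hand for 7 of the 10 genes, AGGAAG or its complement was in 4 (Timp1, Timp3, Mmp3 and Mmp14) and the GC box in 6 (all but Mmp3). That of Timp3 lies outside the run printed above, in the bases left out after the GENCODE start. Of the 32851 mouse promoters of this length, 29.5% hold the first and 32.7% the second. The AP-1 motif TGANTCA, in 6.75% of all promoters, was found in Mmp3 only, and the clock E-box CACGTG, in 6.02%, in none of the 7. The other motifs searched, all on both strands, were the palindromic cAMP response element (1.55% of promoters), AGGTCA (14%) and the CArG box (1.47%), found in none of the 7, and TATAAA (12.4%), found in Mmp3 and Adamts1. A match is a run of letters and not a measured binding site.

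The inhibitors Timp2 and Timp3 were the most abundant transcripts of the group. Because reads come from the 3′ end, CPM is not divided by transcript length. Timp2, on chromosome 11 (118301069-118355740, minus strand, build mm10), averaged 5576 ± 1085 CPM (SD, n = 62) and ranked 8 among all genes by mean level. Timp3, the inhibitor that binds to the matrix, on chromosome 10 (86300372-86349506, plus strand), averaged 3517 ± 958 CPM and ranked 17. Timp1, on chromosome X (20870166-20874735, plus strand), averaged 167 ± 77.6 CPM and ranked 935. Timp1 overlaps Syn1 on the other strand, and Timp3 overlaps Syn3 on the other strand, with a Syn3 exon in its last 1000 bases. Timp2 overlaps Cep295nl on the same strand, and Mmp19 overlaps Tmem198b on the other strand, with an exon in its last 1000 bases, and Gm47093. Adamts2 overlaps 3 genes on the other strand. Whether counting used strand is not given in the sources used here, so reads of such pairs cannot be told apart.

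Among the proteases, Mmp2, a gelatinase, averaged 547 ± 83.2 CPM (range 308 to 759 over the 62 libraries), and Mmp14, the membrane protease that activates it, averaged 418 ± 112 CPM (145 to 695). Adamts2, the procollagen N-proteinase, averaged 249.4 ± 72.5 CPM (65.9 to 417), and Adamts5, an aggrecanase, 168 ± 65.9 CPM (17.5 to 298). Adamts1, a versican-cutting protease, averaged 51.3 ± 17.4 CPM, and Mmp19 49.4 ± 10.1 CPM. Mmp3, stromelysin 1, was close to the limit of the depth, with 1.45 ± 1.01 CPM, 0 to 24 counts per library and 3 libraries at 0. The order of the means therefore runs over more than 3 orders of magnitude between genes. Neighbours in it were often within their spread, as for Adamts5 and Timp1 or for Adamts1 and Mmp19, and the ranges of Timp2 and Timp3 overlapped (2162 to 7698 and 1400 to 5237 CPM).

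**Figure D1:**
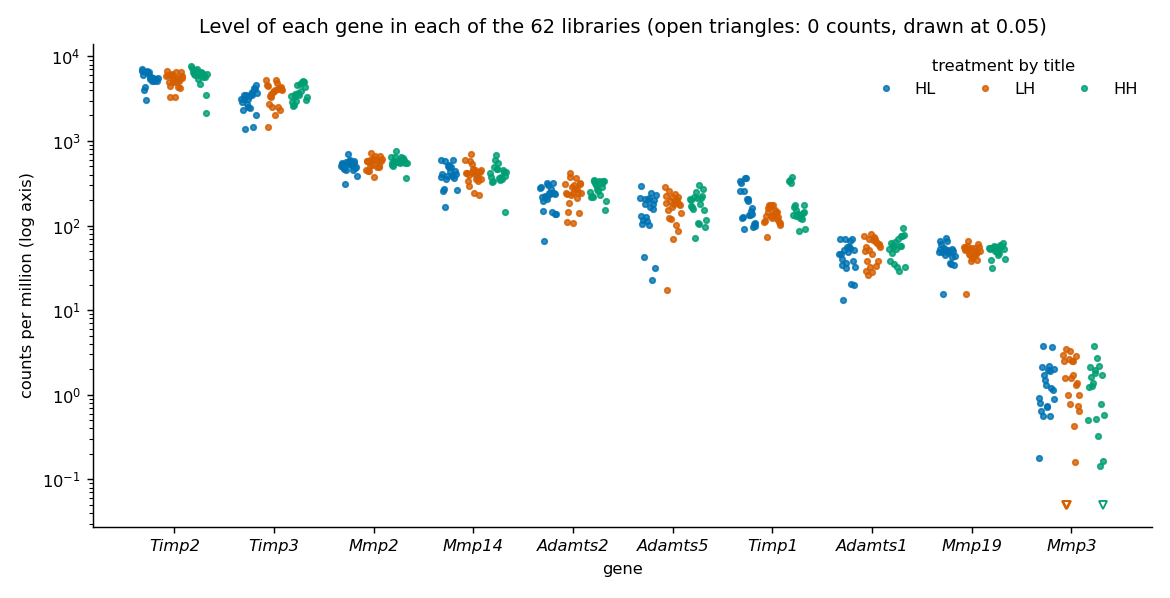
Level of each of the 10 genes in each library, in CPM on a log axis; points are libraries, coloured by treatment (titles), and open triangles at 0.05 mark libraries at 0 counts. Timp2 and Timp3 lie above 1000 CPM in every library, Mmp3 lies below 4 CPM in every library, and the 3 treatments overlap for every gene.

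The 10 libraries that stood apart held less of several of these transcripts. The median of Adamts5 was 76.9 CPM in them and 189 CPM in the other 52, that of Timp3 2164 against 3653 CPM, and that of Adamts2 141 against 262.8 CPM. Timp2 (3825 against 5925 CPM) and Adamts1 (28.7 against 55.1 CPM) were lower as well. Timp1 was at 144 CPM in them and 137 CPM in the rest. The choice of these libraries left out the 10 genes themselves, and what sets the libraries apart was not tested.

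The first question the design asks is whether the order of feeding and fasting changes the mean level of a gene over the day. The differences were small for this group, and Timp1 was the 1 gene called, by titles and not by library numbers. Timp1 ranged from 90.4 CPM (lowest) through 147 (median) to 367 CPM (highest) in the 21 HL libraries, from 74.1 through 132 to 175 CPM in the 22 LH libraries, and from 85.8 through 142 to 370 CPM in the 19 HH libraries. High values above 250 CPM occurred in HL and HH and in no library titled LH, and below that the treatments overlapped. A gene was called where the unadjusted p of the edgeR quasi-likelihood test, with collection as a term, was under 0.01 over the 3 treatments and under 0.05 for the pair. The methods of the study name a multiple comparison test for the pair and do not name LH against HH, whereas here the pair was not corrected and LH against HH was tested as well. Timp1 was lower in LH than in HL, with a log2 fold change of -0.43 (SE 0.12, edgeR adjusted p = 0.472, the rank of its unadjusted p being 17 of 13292). It was also lower in LH than in HH, by -0.27 (SE 0.13, edgeR adjusted p = 0.883, rank 540). These were the only members called, 1 of 10 in each comparison against 1.16% and 0.91% of the 13292 genes tested (0.73% and 0.481% called lower in LH). Between HH and HL 0 of 10 passed by edgeR, against 1.2% of all genes, and 0 of 10 by DESeq2, against 1.22%. By edgeR 2 of 10 (Timp3 and Adamts2) were there at an unadjusted p under 0.05, which 7.42% of all genes reached.

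The Timp1 difference rested on the titles. By library numbers it was -0.0023 between LH and HL (edgeR adjusted p = 0.995) and -0.010 between LH and HH (0.978). There 0 of 10 members were called in any pair, against 1.34% (LH and HL), 0.568% (HH and HL) and 1.63% (LH and HH) of all genes, with 1 of 10 (Adamts2) at an unadjusted p under 0.05 between LH and HH and 0 in the other pairs. By titles it was also lost without HL replicate 2 (-0.39, p over 3 treatments 0.0138) or LH replicate 4 (-0.40, 0.0186). Between LH and HH it was lost without the 10 libraries that stood apart (-0.23, edgeR adjusted p = 0.993; 0 of 10 beside 1.04% of all genes), and without HL replicate 2 (-0.25), LH replicates 2, 3 or 4 (-0.27, -0.24 and -0.23), or HH replicates 2 or 3 (-0.23 and -0.26). Without the libraries that stood apart, Timp1 was called lower in HH than in HL as well, by -0.28 (SE 0.13, edgeR adjusted p = 0.495), and stayed called in LH against HL (-0.51, SE 0.13, adjusted p = 0.0944). These were 1 of 10 members beside 2.27% and 2.62% of all genes.

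By titles, none of the other 9 genes was called for its mean level in any of the 3 comparisons. Adamts2 read 0.30 on the log2 scale between HH and HL (SE 0.12, edgeR adjusted p = 0.606) and Timp3 0.25 (SE 0.11, adjusted p = 0.636), and neither passed the test over the 3 treatments. By library numbers these values were 0.054 (SE 0.11) for Adamts2 and 0.13 (SE 0.10) for Timp3. By titles Timp2 read -0.10 between LH and HL (SE 0.084), Mmp2 0.066 (SE 0.060), Mmp14 -0.036 (SE 0.12) and Mmp19 -0.056 (SE 0.092). Mmp3, at its low counts, read 0.17 with an SE of 0.34. By library numbers the sign turned for Timp2 (0.12, SE 0.078), Mmp2 (-0.058, SE 0.056) and Mmp14 (0.081, SE 0.099), and Mmp19 read -0.015 (SE 0.086) and Mmp3 0.41 (SE 0.36). By titles the median over the 10 genes of the log2 fold change was 0.046 between LH and HL, beside 0.0013 over all genes tested. It was 0.066 beside 0.0023 between HH and HL, and -0.077 beside -0.0002 between LH and HH. By library numbers the 3 medians of the 10 genes were -0.0086, 0.014 and -0.059. The 3 comparisons share libraries and are not independent of one another.

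**Figure D2:**
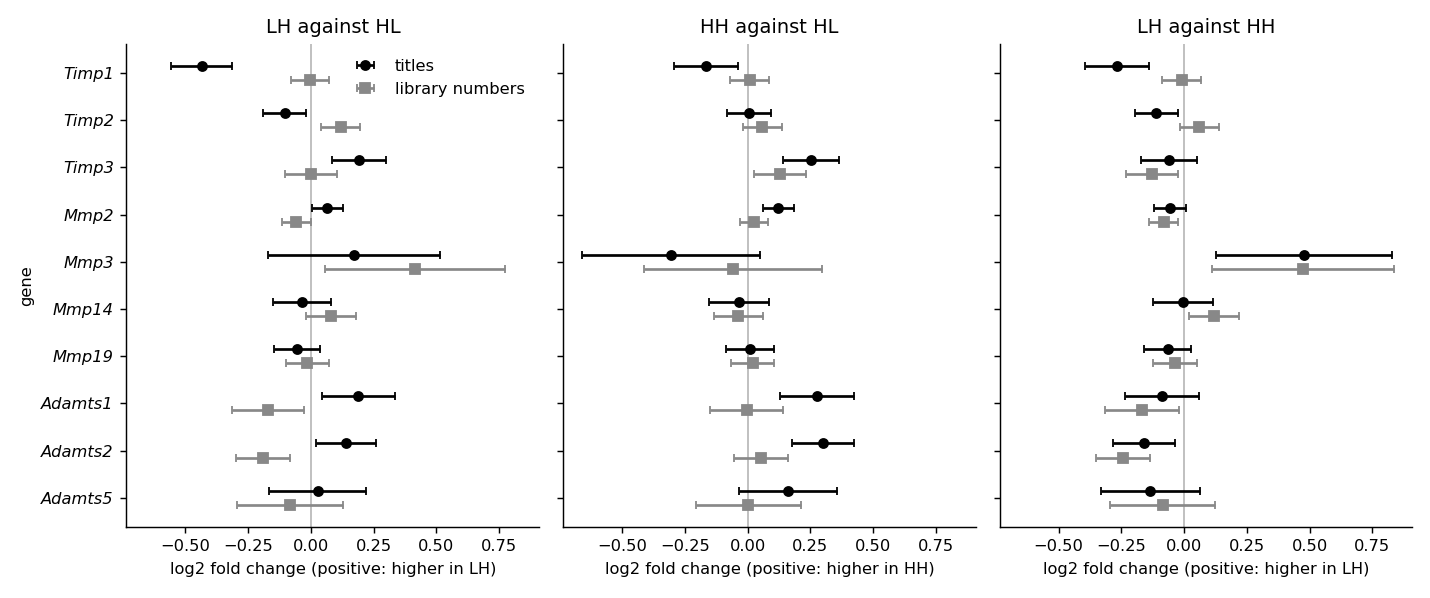
Log2 fold change of the mean level of each gene between treatments, with its standard error, from the edgeR fits with samples placed by titles (circles) or by library numbers (squares). Timp1 lies at -0.43 between LH and HL by titles and at -0.0023 by library numbers, and the error bars of Mmp3 are the widest.

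The second question is whether a gene changes over the hours that follow the last medium change. Timp1 was high at the first collection of HH and low at all later ones. The 4 libraries of that collection held 340, 342, 321 and 370 CPM, a mean of 343 ± 20.3 CPM. The 15 later libraries ranged from 85.8 CPM through a median of 135 to 174 CPM, with collection means of 158 ± 21.2 (n = 3), 139 ± 12.9 (n = 3), 112 ± 37.3 (n = 2), 125 ± 8.49 (n = 3) and 138 ± 34.3 CPM (n = 4). The first collection lay above every later library without overlap, 2.52-fold over their mean, and the later collections overlapped one another. A first collection above all later libraries was seen in 0.557% of the genes tested in HH.

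In HL by titles, Timp1 was high at 2 collections. It held 253.7, 339 and 320 CPM at collection 1, where all libraries have the same place under both labels. At collection 3 it held 360, 367 and 208 CPM, and at collection 2, 1 of 4 libraries held 255.6 CPM while the others held 122, 125 and 90.4 CPM. From collection 4 on, HL libraries lay between 97.1 and 206 CPM, with a mean of 101 ± 4.57 CPM at collection 6 (n = 4). The LH libraries by titles stayed between 74.1 and 175 CPM, with collection means from 112 to 161 CPM and no high first collection (111, 114 and 131 CPM).

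Under the library numbers the first collection of Timp1 was high in each of the 3 treatments. The 10 libraries above 250 CPM were the 4 of HH collection 1, the 3 of HL collection 1, and 3 titled HL collection 2 or 3 that their numbers name LH collection 1. The lowest of these held 253.7 CPM, and the next library in order 208 CPM. By numbers the first collection of LH averaged 327 ± 62.2 CPM (n = 3), the second 204 ± 5.87 CPM (n = 3), and the rest 97.9 to 143 CPM. The value of 97.9 CPM is that of collection 5, which held 1 library. The second collection averaged 171 ± 5.49 CPM (n = 3) in HL and 158 ± 21.2 CPM (n = 3) in HH. The libraries of LH there (197 to 208 CPM) lay above those of HL (165 to 175 CPM), a difference that was not tested. The first collection then exceeded the mean of the later ones 2.43-fold in LH and 2.20-fold in HL, again with no overlap, which 0.594% and 0.308% of genes showed. Which label is right was not tested, and the level of Timp1 cannot decide it.

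**Figure D3:**
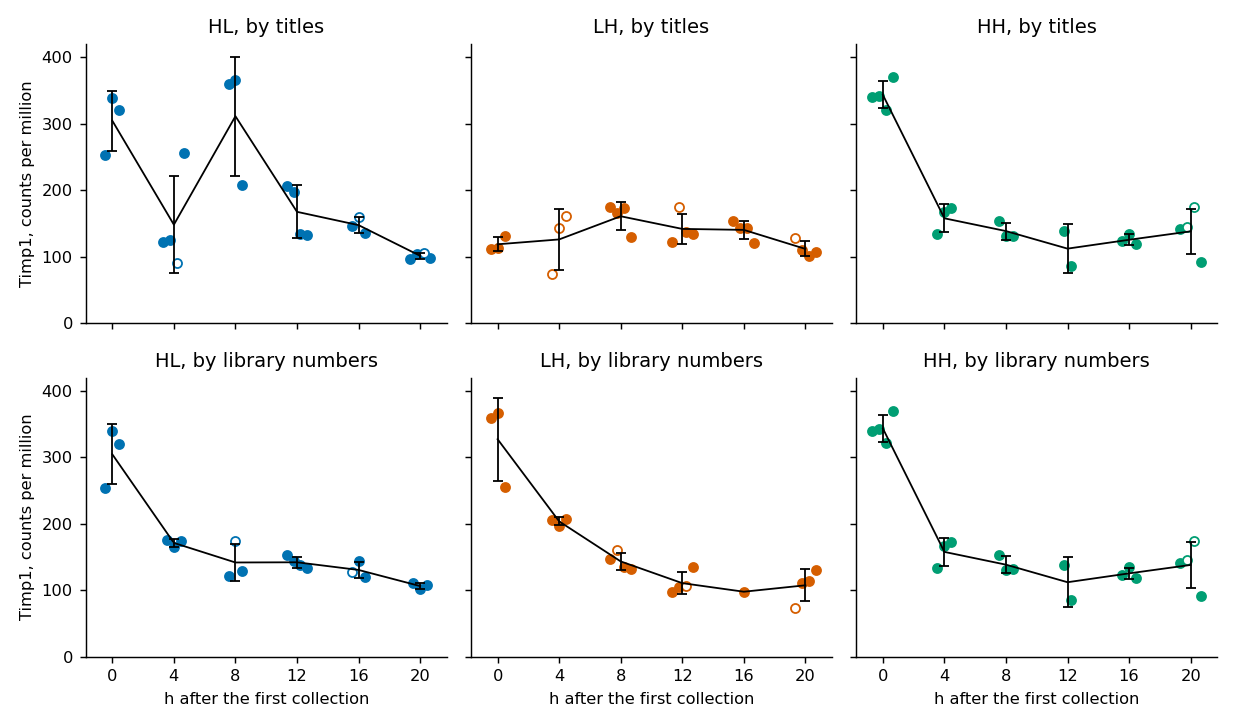
Timp1 in CPM against hours after the first collection for HL, LH and HH, with libraries placed by titles (upper panels) or by library numbers (lower panels). Points are libraries (open for the 10 that stood apart), lines join collection means and bars are SD; the HH panels are the same in both rows and fall from 343 CPM at 0 h to 158 CPM at 4 h.

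The test of any difference among the 6 collections within a treatment (edgeR quasi-likelihood F test) put Timp1 first of 13292 genes in HH (adjusted p = 2.81e-06) and first in HL by titles (adjusted p = 1.02e-05). In LH by titles its adjusted p was 0.484. Timp1 was the 1 of 10 members called in HH, where 0.293% of all genes were called, and the 1 of 10 in HL, against 0.301%. In LH 0 of 10 were called by edgeR, against 2.93% of all genes, and 0 of 10 by DESeq2, against 5.24%. By edgeR 2 of 10 (Timp3 and Adamts2) were there at an unadjusted p under 0.05 (16.9% of all genes). By library numbers Timp1 was called in all 3 treatments (edgeR adjusted p = 2.03e-07 in HL, 3.70e-09 in LH and 2.36e-09 in HH), each time as 1 of 10 members beside 0.394%, 1.05% and 0.803% of all genes. Leaving out 1 replicate number at a time kept the call in HH (adjusted p from 0.000161 to 0.00156) and in HL (1.33e-07 to 0.00453).

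Timp3 ran the other way in HH, from low to high. It held 3373, 2879, 2586 and 2647 CPM at collection 1 and 5018, 5142 and 4957 CPM at collection 5, and these groups did not overlap. A first collection wholly below the fifth was found for 7.18% of all genes, and this pair, like those named for Mmp14 and Adamts2, was chosen after its values were seen. The collections between them averaged 3317, 3936 and 4278 CPM, and collection 6 spread from 3042 to 4913 CPM (mean 3895 ± 876 CPM, n = 4), with 2 of its 4 libraries among those that stood apart. Over all 19 HH libraries the edgeR test of the collections gave an adjusted p of 0.501 for Timp3, and without the 2 that stood apart it gave 0.00356. In that fit 3 of 10 members (Timp1, Timp3 and Mmp14) were called in HH, beside 3.21% of all genes. In HL by titles the adjusted p was 0.847 with all libraries and 0.0412 without the 3 that stood apart, which made 2 of 10 members (Timp1 and Timp3) beside 0.644% of all genes. By library numbers and without those libraries, Timp3 was called in HL (adjusted p = 0.0452), LH (0.00385) and HH (0.00206), within 2, 2 and 3 members of 10 called beside 1.51%, 6.03% and 4.62% of all genes.

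Mmp14 had its highest HH values at the second collection. It held 493, 594 and 689 CPM there, against 421, 379, 329 and 337 CPM at the first, with no overlap between these 2 collections, an order that 4.78% of all genes showed. At collection 3 the libraries held 472, 462 and 541 CPM, and at collections 4 and 5 they held 349 to 455 CPM. The edgeR adjusted p was 0.517 with all HH libraries and 0.0463 without the 2 that stood apart, of which 1 held 145 CPM at collection 6. Timp2 averaged 6951 CPM at the first HH collection and 4359 CPM at the last, where the 2 libraries that stood apart held 3454 and 2162 CPM and the other 2 held 5626 and 6193 CPM. Its adjusted p was 0.507 with all libraries and 0.503 without them.

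Of the remaining proteases, none was called for a change over the collections in HH with or without the libraries that stood apart. Mmp2 stayed between 361 and 759 CPM over the HH libraries, Mmp19 between 31.7 and 62.2 CPM, and Adamts1 between 28.8 and 93.8 CPM. Adamts2 held 248, 216, 222 and 219 CPM at the first HH collection and 339, 343 and 316 CPM at the second, without overlap (the same order, 4.78% of all genes), but later libraries spread over both ranges (154 to 337 CPM). Adamts5 ranged from 71.9 to 298 CPM with overlap between all collections.

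**Figure D4:**
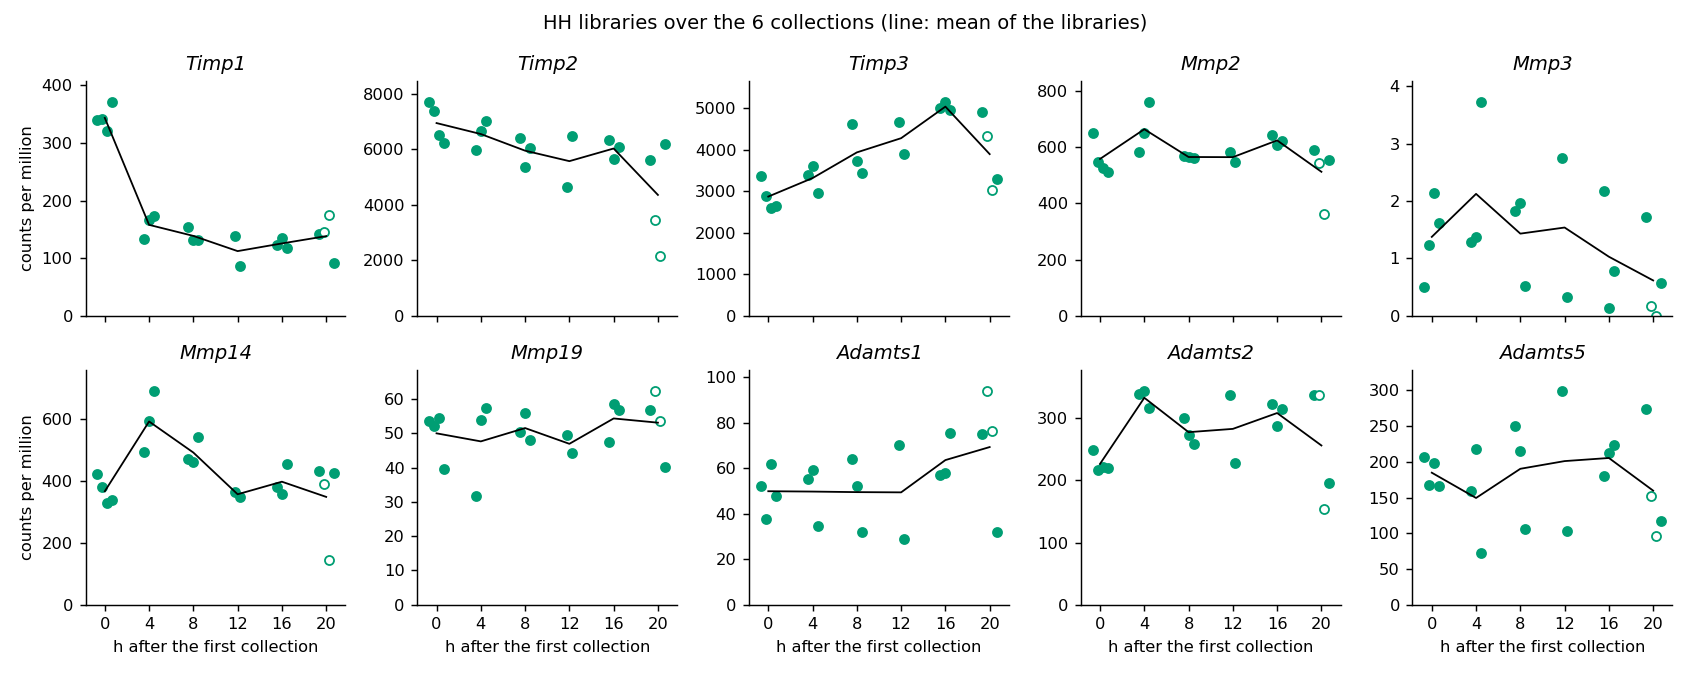
Level of the 10 genes in the 19 HH libraries (CPM, linear axes from 0) against hours after the first collection; points are libraries, open where the library stood apart, and lines join the collection means. Timp1 falls after 0 h, Timp3 climbs to 5039 CPM at 16 h, Mmp14 is highest at 4 h with 592 CPM, and Mmp3 scatters below 4 CPM.

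A 24 h rhythm was tested with JTK_CYCLE, a rank test against cosine curves, at a P under 0.01. This P comes from the exact null and is corrected over phases, but not over genes. In HH 2 of 10 members passed, against 1.24% of all genes: Timp3 with a peak at 14 h (exact JTK P = 0.00106, adjusted p = 0.362) and Timp1 with a peak at 0 h (exact JTK P = 0.00294, adjusted p = 0.522). Timp3 did not pass without HH replicate 1 (P = 0.0123), 2 (0.0145) or 3 (0.0127), each by the exact JTK test, and passed without the libraries that stood apart (0.00118), there as the 1 member of 10 beside 1.03% of all genes. Timp1 did not pass without HH replicate 2 (exact JTK P = 0.0158), 3 (0.0892) or 4 (0.0321), nor without the libraries that stood apart (0.0123). In HL and LH 0 of 10 passed by titles, against 0.466% and 0.888% of all genes, with 0 and 1 (Timp1) at a JTK P under 0.05, which 1.9% and 3.24% of all genes reached. By a cosine curve in edgeR at the same threshold Timp1 passed in HL, 1 of 10 beside 1.12% of all genes. By library numbers Timp1 (exact JTK P = 0.000765, peak 2 h) and Timp2 (0.00804, peak 0 h) passed in LH, 2 of 10 beside 1.36% of all genes.

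The difference in the 24 h curve between treatments was tested directly, and 0 of 10 members passed between any 2 treatments by edgeR at an adjusted p under 0.05, where 0.0677% (HL and LH), 0.015% (HL and HH) and 0.0527% (LH and HH) of all genes did. Timp1 came nearest, between LH and HH (edgeR adjusted p = 0.0578), and DESeq2 gave an adjusted p of 0.023 for it. By library numbers the adjusted p of Timp1 was 0.83. At an unadjusted p under 0.05, 2 of 10 members (Timp1 and Mmp14) differed between HL and HH, 1 (Timp1) between LH and HH and 0 between HL and LH, where 9.91%, 9.61% and 7.21% of all genes did.

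The rest of the metalloproteinase system was read from lists of related genes. Of 19 other MMPs 8 passed the filter, led by the membrane-type Mmp16 at 125 CPM and Mmp11 at 25.7 CPM. Of 21 other ADAMTS and ADAMTS-like genes 16 passed, with Adamtsl4 at 92.0 CPM and the aggrecanase Adamts4 at 14.9 CPM, and of 10 ADAM proteases 8 passed, with Adam15 at 126, Adam10 at 65.6 and Adam17 at 45.1 CPM. Of 17 other inhibitors and activators 14 passed, among them Bsg, which induces MMPs, at 460 CPM and Lrp1, a receptor that clears proteases, at 313 CPM, and all 16 matrix substrates passed, up to Col1a2 at 14955 CPM. Reck, a membrane-anchored MMP inhibitor, averaged 4.21 CPM, and Timp4 0.0349 CPM, below the filter.

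Few of these genes were called. By titles, 2.93% of all genes changed over the LH collections by edgeR. Mmp16 (adjusted p = 0.0106) and Furin, the convertase that activates membrane MMPs (0.0171), were among the list genes that did. Collection 2 of LH holds only libraries that stood apart, and without those libraries neither was called (adjusted p = 0.604 and 0.889). The collagen IV gene Col4a2 passed the rhythm test in HH with a peak at 4 h (exact JTK P = 0.00525, adjusted p = 0.669), and did so without the libraries that stood apart (0.00483). It was the 1 gene that passed there of the 62 in these lists tested, beside 1.24% of all genes. Adamtsl3, at 0.206 CPM, was called higher in HH than in HL and lower in LH than in HH, under either label. Of all genes 1.2% and 0.91% were called in these comparisons by titles, and 0.568% and 1.63% by numbers. Without the libraries that stood apart the first call alone was kept, and by titles only. By library numbers Furin was called higher in LH than in HL (0.41 on the log2 scale, SE 0.15) and than in HH (0.48, SE 0.15), beside 1.34% and 1.63% of all genes. Without the libraries that stood apart neither difference was called (0.045 and 0.091). By library numbers neither Mmp16 nor Furin was called for a change over the LH collections. Col3a1 was called, with and without the libraries that stood apart, beside 1.05% and 6.03% of all genes. Collection 5 of LH held 1 library there. Of the 62 genes of these lists tested by library numbers, 7 passed the rhythm test in LH (JTK P under 0.01), which 1.36% of all genes did: the collagens Col4a1, Col4a2, Col5a1 and Col6a1 and the proteases Adamts4, Adam12 and Adam19. Their JTK adjusted p ran from 0.352 to 0.592, by titles 0 of the list genes passed, and without the libraries that stood apart all but Adam12 passed by numbers.

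The 10 genes varied together over the 62 libraries in part. Of 45 pairs, 23 had a Spearman rho with a Benjamini-Hochberg adjusted permutation p under 0.05, 22 positive and 1 negative. Over the 52 libraries that did not stand apart 10 pairs passed, all among those 23, 9 positive and 1 negative. The share of such pairs among all genes was not counted, so both counts only describe these genes. The 13 pairs lost all involved Timp2, Mmp2 or Mmp19, among them Timp2 and Adamts2 (rho = 0.34 over all libraries and 0.077 over the 52) and Mmp2 and Adamts5 (0.37 and 0.093). The closest pair was Mmp2 and Adamts2 (Pearson r = 0.77, Spearman rho = 0.76, adjusted permutation p = 4.5e-05 and 6.43e-05; the smallest p that 100000 permutations can give is 1e-05). Without the 2 libraries farthest in Mmp2 r was 0.75, and without the 10 that stood apart rho was 0.68. Within HL, LH and HH by titles rho was 0.67, 0.75 and 0.65. Adamts1 and Adamts5, which lie near each other on chromosome 16 (85793827-85803113 and 85856173-85901828, both on the minus strand), gave r = 0.73 and rho = 0.71 (adjusted permutation p = 4.5e-05 and 6.43e-05), r = 0.77 without the 2 farthest libraries, and rho of 0.73 without the 10 that stood apart, and rho of 0.72, 0.84 and 0.49 within HL, LH and HH by titles.

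Timp1 and Timp3 made the negative pair, with r = -0.34 and rho = -0.37 (adjusted permutation p = 0.0138 and 0.0087). Without the 2 libraries farthest in Timp1 r was -0.30, and without the 10 libraries that stood apart rho was -0.59. Within HL, LH and HH by titles rho was -0.30, -0.34 and -0.60. Libraries of 1 collection share their hour and those that stood apart share low levels of several members, and both enter these correlations.

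**Figure D5:**
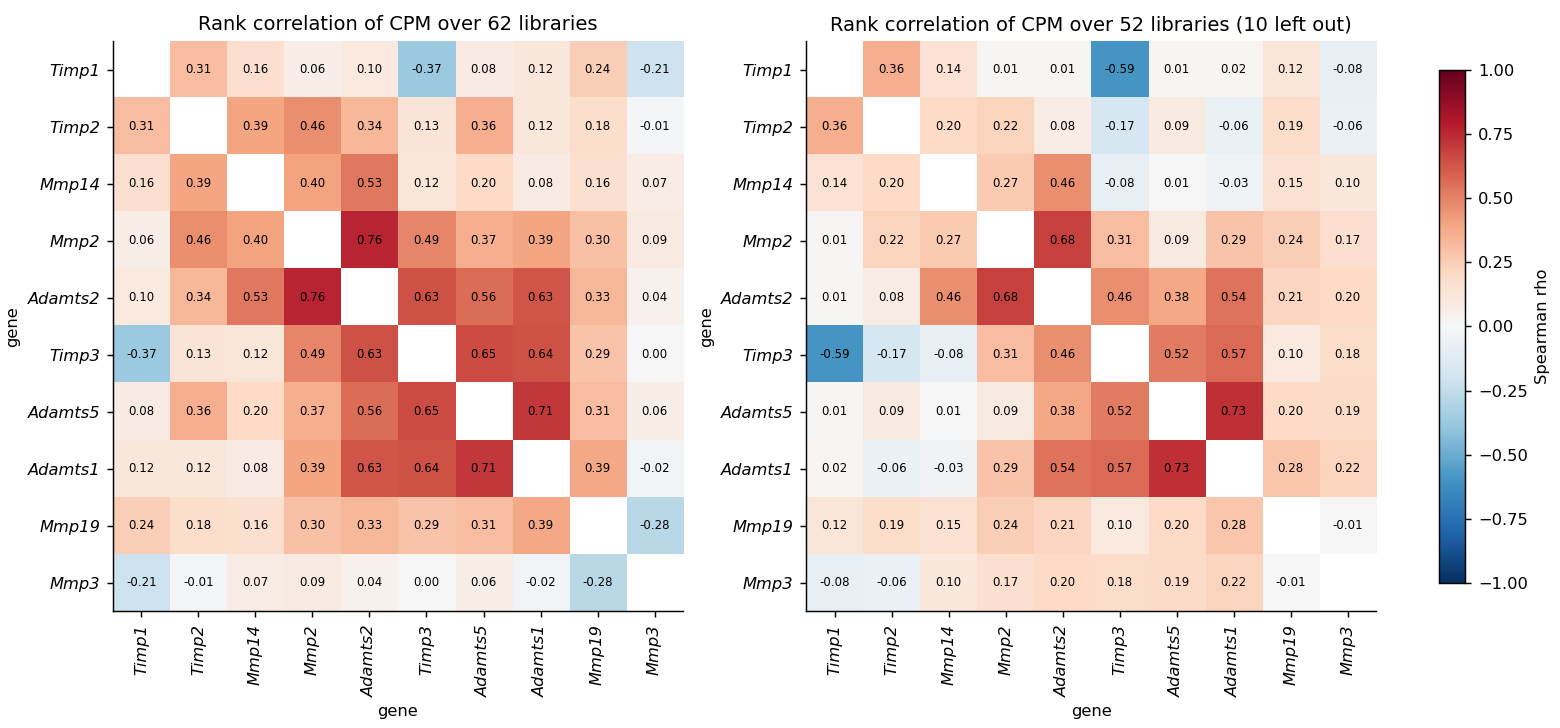
Spearman rho of CPM between the 10 genes over all 62 libraries and over the 52 that did not stand apart; red is positive, blue negative, and each cell gives its rho. Mmp2 with Adamts2 (0.76 and 0.68) and Adamts1 with Adamts5 (0.71 and 0.73) are positive in both panels, and Timp1 with Timp3 is negative in both (-0.37 and -0.59).

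For each member, genes were named from the 3 with the highest Spearman rho over the 62 libraries, out of 7780 genes with a mean of at least 10 CPM, which leaves out Mmp3. Timp1 ran closest to Pclaf, a PCNA-binding protein of DNA replication (rho = 0.79), Spon2, a matrix protein (0.79), and Tcf19 (0.76). Timp2 ran with Bcl9l (0.77), Cavin1, a caveola coat protein (0.75), and the actin-binding Tagln (0.74), and Timp3 with Col8a1, a short-chain collagen (0.92), and Lrrcc1 (0.89). Over the 52 libraries that did not stand apart, rho was 0.74 to 0.80 for the 3 genes of Timp1, 0.62 to 0.65 for those of Timp2, and 0.90 and 0.85 for Col8a1 and Lrrcc1. These are descriptions over libraries that share collections, with no test.

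Among the proteases, Mmp2 ran with Adamts2 (0.76), Zfp703 (0.75) and Ltbp3, a binder of latent TGF-beta (0.73), and Mmp14 with Smarcc1 (0.87), Purb (0.79) and Ift74 (0.75). Mmp19 had the lowest likeness, 0.67 with C1rl, 0.66 with Nsg1 and 0.64 with Eif2s3x. Adamts1 ran with Kdr (0.75), Atp13a3 (0.74) and Cnn2 (0.74), Adamts2 with the membrane peptidase Mme (0.85), Ccdc80 (0.83) and Pbrm1 (0.81), and Adamts5 with Igf1r (0.78), Rb1cc1 (0.77) and Adgrl2 (0.77). Over the 52 libraries rho was lower for Mmp2 (0.63 to 0.68) and Mmp19 (0.54 for each of its 3 genes), and for Adamts5 it was 0.66 to 0.69. It was 0.72 to 0.85 for the genes of Mmp14, 0.69 to 0.74 for those of Adamts1 and 0.73 to 0.83 for those of Adamts2. Igf1r encodes the receptor for insulin-like growth factor 1, and Kdr a receptor for VEGF.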

How the data were processed

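Per the labels and the study's methods, 3′ digital gene expression libraries were sequenced, most in 2 runs (121 count sets, 62 libraries, 59 with 2 runs and 3 with 1), reads were aligned to mm10 with STAR 2.6.0a and counted per gene with HTSeq 0.9.1, and the authors deposited raw counts, which are not normalized. The submitters' processing notes also name bcl2fastq. Rows that name no gene were left out: reads in no feature made up 18.4 to 29.1% and ambiguous reads 0.288 to 0.459% of a library. The files hold no normalized values.

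Runs of a library were summed, and CPM is counts over the library total. Symbols and positions came from GENCODE M21 and promoters from RefSeq (GRCm38.p6). Tests used R 4.3.3 with edgeR 4.0.16 (TMM, quasi-likelihood), with limma 3.58.1 and DESeq2 1.42.0, and Python 3.11.15 with numpy 2.4.6, pandas 2.3.3, scipy 1.17.1 and matplotlib 3.10.9, on genes at 1 CPM or more in 3 or more libraries (13292 by titles, 13198 by library numbers), fitted and adjusted over all of them. JTK_CYCLE was written anew (exact two-sided null, period 24 h, phases in steps of 2 h, P corrected over the phases). Libraries that stood apart had a median Spearman rho with the others under 0.9336 over 9263 genes with a mean of at least 5 CPM, members left out. The labels do not say whether libraries of a group came from separate cultures, so p-values measure the spread between libraries, which may be technical. No 2 replicates agreed within sampling noise (79 pairs, lowest chi-square per degree of freedom 3.597). Same-numbered replicates of different treatments did not deviate together (53 pairs, mean r 0.004).

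The tests were checked on simulated counts of 12954 genes, with 200 changed for each kind of change and 12354 left unchanged. Of each 200, 200 were recovered for a 2-fold level difference between treatments and 198 for a 4-fold rhythm by JTK_CYCLE. For a 2.5-fold first collection in HH 191 were recovered, and for a rhythm difference 194. Of the unchanged genes 0.591%, 0.259%, 0.0971% and 0.113% were called, in that order. Changes were placed in genes with a mean of at least 10 CPM, and level differences as small as those of the members were not simulated. All 10 members were named, with the 3 genes most like each, and related genes came from lists of which the highest by mean level and those called were named; a few genes that these rules name are not reported here. The members, lists and tests were chosen with earlier results of these data known. Alternatives were placement by library numbers, each sequencing run alone, other scaling, no filter, DESeq2, a replicate block, a cosine curve, adjusted thresholds and leaving out libraries or replicate numbers. Leaving out the libraries that stood apart was added after the data were seen.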

Additional observations from a re-analysis of the deposited data

Results flagged for a closer look

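In 5 of the 90 groups of 4 libraries tested (10 genes, each treatment and collection with 4 libraries by titles), 1 library lay far from the others by Dixon's criterion at 95%; chance gives about 1 in 20 groups. Timp3 was at 2478 CPM in HL collection 4 replicate 2, where the others held 3399 to 3571 CPM. Timp3 was at 2300 CPM in LH collection 6 replicate 1, a library that stood apart in its whole profile, where the others held 4032 to 4332 CPM. Mmp14 was at 145 CPM in HH collection 6 replicate 3, which also stood apart, where the others held 389 to 433 CPM. In HH collection 1, Mmp19 was at 39.5 CPM in replicate 4 (others 52.2 to 54.6 CPM), and Adamts2 was at 248 CPM in replicate 1 (others 216 to 222 CPM). The part of library quality in these values was not tested.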

How the results depend on the processing

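The 416 values of single genes under the alternatives cover members with an unadjusted p under 0.05 for that result by titles or by library numbers. Of these 364 kept their side of the threshold, 27 lost their call, 21 gained one and 4 reversed. Direction was compared for level values only, and a value that stayed uncalled counts as kept. The sign turns of Timp2, Mmp2 and Mmp14 between LH and HL by library numbers lie outside this set. Of the counts of members called, 180 stayed within 1.5 times and 45 moved further. By library numbers 0 members were called for level between LH and HL and between LH and HH, 2 of 10 (Timp1, Timp2) for rhythm in LH (1.36% of all genes) and 1 (Timp1) for change in LH (1.05%). With the first run alone (0.0585% of all genes), or with DESeq2 (0.0376%), 1 (Timp1) was called for the rhythm difference between LH and HH. With the second run alone 0 were called for rhythm in HH (1.02% of all genes) and 1 of 10 (Timp3) for change in LH (7.11%). With no filter 2 were called for change in HL, 4 in LH and 3 in HH, beside 3.08%, 6.05% and 2.4% of all genes, and 1 (Timp1) for the rhythm difference between HL and HH (0.246%) and between LH and HH (0.376%). A cosine curve called 1 (Timp1) in HL (1.12% of all genes), and by library numbers 1 in HL (1.76%) and 1 in LH (2.97%). With adjustment over all genes 0 were called for level in either comparison with LH and for rhythm in HH, under either label. Of all genes 0%, 0% and 0.0226% were called there by titles (LH and HL, LH and HH, rhythm in HH), and 0.0152%, 0.0227% and 0.0227% by numbers.

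Without the libraries that stood apart 1 (Timp1) was called for level between HH and HL (2.27% of all genes), 0 between LH and HH (1.04%), 1 (Timp3) for rhythm in HH (1.03%), 2 for change in HL (0.644%) and 3 in HH (3.21%); by library numbers 0 were called for level in either comparison with LH, 2 for rhythm in LH (1.95%), 1 in HH (1.03%), and 2, 2 and 3 for change in HL, LH and HH (1.51%, 6.03% and 4.62%). Of all genes, 1.12% (LH and HL) and 1.81% (LH and HH) were called for level by library numbers without the libraries that stood apart. The reversed values were those of Adamts2 without these libraries (0.040 on the log2 scale between LH and HH, and by numbers -0.028 between HH and HL) and of Timp1 by numbers without them (0.031 between LH and HL, 0.069 between LH and HH). The cause was not tested. Without 1 replicate number, 0 to 1 members were called for level between LH and HL (0.665 to 1.64% of all genes), 0 to 1 between LH and HH (0.538 to 2.06%), and 0 to 1 for rhythm in HH (0.408 to 0.884%).

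The replicate block left 1 member (Timp1) called for level between LH and HL (-0.43, beside 1.04% of all genes) and between LH and HH (-0.27, beside 0.745%). Timp1 was also the 1 member called for change in HL (0.226% of all genes) and HH (0.278%). The block changed no member's call, and the replicate numbers pair no cultures in the labels.

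Over all genes, change over the collections in HH was called for 39 genes, for 106 by library numbers, 134 by DESeq2, 498 with no filter and 419 without the libraries that stood apart; in LH for 390, 139, 696, 1254 and 79 (the last with no library left in LH collection 2); and in HL for 40, 52, 103, 638 and 84. For level between LH and HL, HH and HL, and LH and HH, 154, 160 and 121 genes were called by titles, 177, 75 and 215 by numbers, 387, 399 and 335 with no filter, and 0 with adjustment (756, 986 and 695 at an unadjusted p under 0.05). Rhythm in HL, LH and HH was called for 62, 118 and 165 genes, for 140, 179 and 165 by numbers, and for 149, 434 and 382 by the cosine curve. The shallow library of LH collection 2 held 104912 counts, in which 3 counts make 28.6 CPM, and Mmp3 had 0 to 24 counts per library.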
